A study of Homo sapiens with 6 samples.

Results

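The 54 genes described here encode the machinery that brings nascent proteins into the endoplasmic reticulum (ER) and carries them on to the Golgi: the signal recognition particle (SRP) and its receptor, the translocon, signal peptidase, oligosaccharyltransferase, the COPII and COPI vesicle coats, and the cargo receptors these coats carry. The genes were chosen by name from these complexes. The rule did not use their measured values, but the list was drawn up with earlier results of these data known. All 54 symbols were found among the 21850 genes of the deposited table, and all 54 had enough reads to be tested.

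Secretory and membrane proteins are recognised by the SRP as they leave the ribosome, handed to the SEC61 channel, cut by signal peptidase and decorated with N-linked glycans while still entering the ER. COPII-coated vesicles then carry folded cargo towards the Golgi, and COPI-coated vesicles bring escaped ER residents and recycling receptors back. Plasma cells, the cells from which multiple myeloma arises, secrete immunoglobulin at a high rate and are known for an extensive ER.

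RNA-seq was performed in MM.1S, an established human multiple myeloma cell line, 3 days after lentiviral infection. The control group, shNT, received a scramble shRNA and is labelled wild type (3 libraries). The knockdown group, shPRKCN, received an shRNA against PRKCN (3 libraries), and the comparison asks how the transcriptome differs when this kinase transcript is lowered. No library with another PRKCN shRNA is labelled. Effects of the shRNA on other transcripts and effects of lowered PRKCN therefore cannot be told apart. All 6 libraries come from 1 cell line, the labels do not separate cultures, and the p-values therefore measure the spread between libraries, which may be technical.

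PRKCN is listed under its current symbol PRKD3 (chr2:37250502-37324833), a serine/threonine kinase of the protein kinase D family. Its level was 1272, 1298 and 1216 CPM (read counts scaled to a common library size) in the shNT libraries and 535, 491 and 527 CPM in the shPRKCN libraries, with no overlap. This left 41.0% of the control level, or -1.29 on the log2 scale with a standard error of 0.034 (adjusted p = 8.2e-43). Errors after log2 fold changes are standard errors throughout. Library totals ran from 35625564 to 37730003 counts, and the 54 genes together took 0.890% to 1.03% of all counts. Libraries of 1 group differed by a chi-square of 3.38 to 4.80 per degree of freedom, and libraries of different groups by 63.8 to 70.2, so no library repeated another. All 9 plasma cell markers had at least 1242 counts in every library, and their summed level was 9207 to 9327 CPM in shNT and 7920 to 8044 CPM in shPRKCN. JCHAIN, with a log2 fold change of 0.01, did not pass (adjusted p = 0.712). Without JCHAIN, the sum of the other 8 was 3862 to 3927 CPM and 2527 to 2620 CPM. These 8 went in both directions: IRF4 (-1.85), XBP1 (-1.28), TNFRSF17 (-1.13), SLAMF7 (-0.97), PRDM1 (-0.54) and MZB1 (-0.23) fell, SDC1 rose (0.18), and CD38 did not pass (-0.01). Markers of T cells, monocytes, stromal, epithelial and erythroid cells, of which 13 of 15 were listed, summed to 16.2 to 18.4 CPM in shNT and 30.4 to 34.7 CPM in shPRKCN. CD3E, a subunit of the T cell receptor complex, rose from 10.9 to 28.8 CPM. The other 12 together went from 5.85 to 7.31 CPM down to 2.52 to 3.82 CPM, with HBB (-1.65) and PDGFRB (-1.07) called lower. PDGFRB had only 25, 38 and 50 counts in shNT and 20, 15 and 20 in shPRKCN. Its adjusted p of 0.013 reached up to 0.12 when 1 library was left out. CD3D, CSF1R, LYZ and COL3A1, 4 of the 13, never exceeded 5 counts. The others did in at least 1 library, from COL1A1 with up to 6 counts to CD3E with up to 1150. The part of these differences in the results was not tested. In such bulk RNA, fewer cells of a kind and less RNA per cell cannot be told apart.

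The start regions of 4 members are shown because they carry the promoter description given further on: SPCS2, the member with the lowest shPRKCN level relative to control, and SEC62, SRP19 and COPB2, whose windows hold the core of the unfolded protein response (UPR) element. Each window runs from 250 bases before to 50 bases after a RefSeq transcript start (GRCh38.p14), 5′ to 3′ in the direction of transcription, and capitals mark CCACGTCA, the UPR element core TGACGTGG read on the opposite strand.
SPCS2 (chr11:74949016-74949315, plus strand): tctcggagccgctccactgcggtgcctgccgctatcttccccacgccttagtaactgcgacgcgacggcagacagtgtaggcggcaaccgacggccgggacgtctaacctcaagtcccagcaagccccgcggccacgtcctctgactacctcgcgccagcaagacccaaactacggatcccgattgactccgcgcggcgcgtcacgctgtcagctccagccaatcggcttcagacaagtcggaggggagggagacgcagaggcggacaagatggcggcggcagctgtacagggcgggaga
SEC62 (chr3:169966557-169966856, plus strand): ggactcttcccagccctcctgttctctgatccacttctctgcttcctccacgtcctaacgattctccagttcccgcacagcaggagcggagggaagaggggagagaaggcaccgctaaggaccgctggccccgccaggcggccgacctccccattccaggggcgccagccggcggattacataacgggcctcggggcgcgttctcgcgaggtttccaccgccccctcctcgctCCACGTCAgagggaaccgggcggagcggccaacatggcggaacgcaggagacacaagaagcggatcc
SRP19 (chr5:112861037-112861336, plus strand): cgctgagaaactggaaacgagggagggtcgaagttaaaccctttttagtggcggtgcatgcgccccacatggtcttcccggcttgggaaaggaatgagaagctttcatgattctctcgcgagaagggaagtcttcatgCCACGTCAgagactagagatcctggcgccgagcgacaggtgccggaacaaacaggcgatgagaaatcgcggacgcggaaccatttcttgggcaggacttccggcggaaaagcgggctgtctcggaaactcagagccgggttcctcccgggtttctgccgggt
COPB2 (chr3:139389598-139389897, minus strand): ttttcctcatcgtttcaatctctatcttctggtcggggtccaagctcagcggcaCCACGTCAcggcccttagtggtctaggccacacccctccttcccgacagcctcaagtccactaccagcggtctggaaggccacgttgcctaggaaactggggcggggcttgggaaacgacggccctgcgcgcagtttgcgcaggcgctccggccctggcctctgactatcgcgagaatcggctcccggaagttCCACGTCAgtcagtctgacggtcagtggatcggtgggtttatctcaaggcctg
The first base of the match lay 17 bases before the start in SEC62 and 112 bases before it in SRP19. In the COPB2 window shown, the matches began 196 and 3 bases before the start. COPB2 has another RefSeq start, from which the matches began 163 bases before and 30 bases after. No match to any motif searched was present in the SPCS2 window.

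Across the 54 genes, the balance of change was towards lower levels after PRKCN knockdown. At an adjusted p under 0.05, 32 members fell (59.3%), 5 rose (9.26%) and 17 did not pass the test. Among all 13971 genes tested, 27.8% fell and 26.5% rose. Restricting the background to the 6834 genes at least as abundant as the lowest member gave 32.2% lower and 34.7% higher. The members' median log2 fold change was -0.13, beside 0.0012 for all genes tested and 0.013 for the abundant ones, and 45 of the 54 estimates were below 0. In 35 members every shPRKCN library was below every shNT library, and in 6 every one was above, where 29.8% and 29.0% of all genes were so separated. Summed over the 54 genes, the level was 10298 ± 64.1 CPM (SD, n = 3) in shNT and 8898 ± 50.1 CPM in shPRKCN, 86.4% of control.

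Most of these changes were small. With a log2 fold limit of 0.58 added, 3 members fell and 0 rose, beside 10.6% and 6.15% of all genes. The 3 were SPCS2, SSR3 and SEC24D. SSR3 at -0.59 and SEC24D at -0.61 lay just inside the limit, and SPCS3 and SEC11C, both at -0.57, lay just outside it. Leaving out shNT 2 brought SEC24D to -0.56 and the count to 2, whereas leaving out shNT 1 brought SPCS3 to -0.59 and the count to 4. SSR3 came to -0.579, short of the limit, without shPRKCN 1. SPCS2 passed the limit in every fit, including a test against the limit itself, in which it was the 1 member called. Members differed widely in abundance, with a control level per transcript length (FPKM) between 3.75 (SRP19) and 337 (SSR2) and a median of 47.5. Both SRP19 and SSR2 fell, but these are single genes, and a relation between abundance and fold change was not tested.

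**Figure D1:**
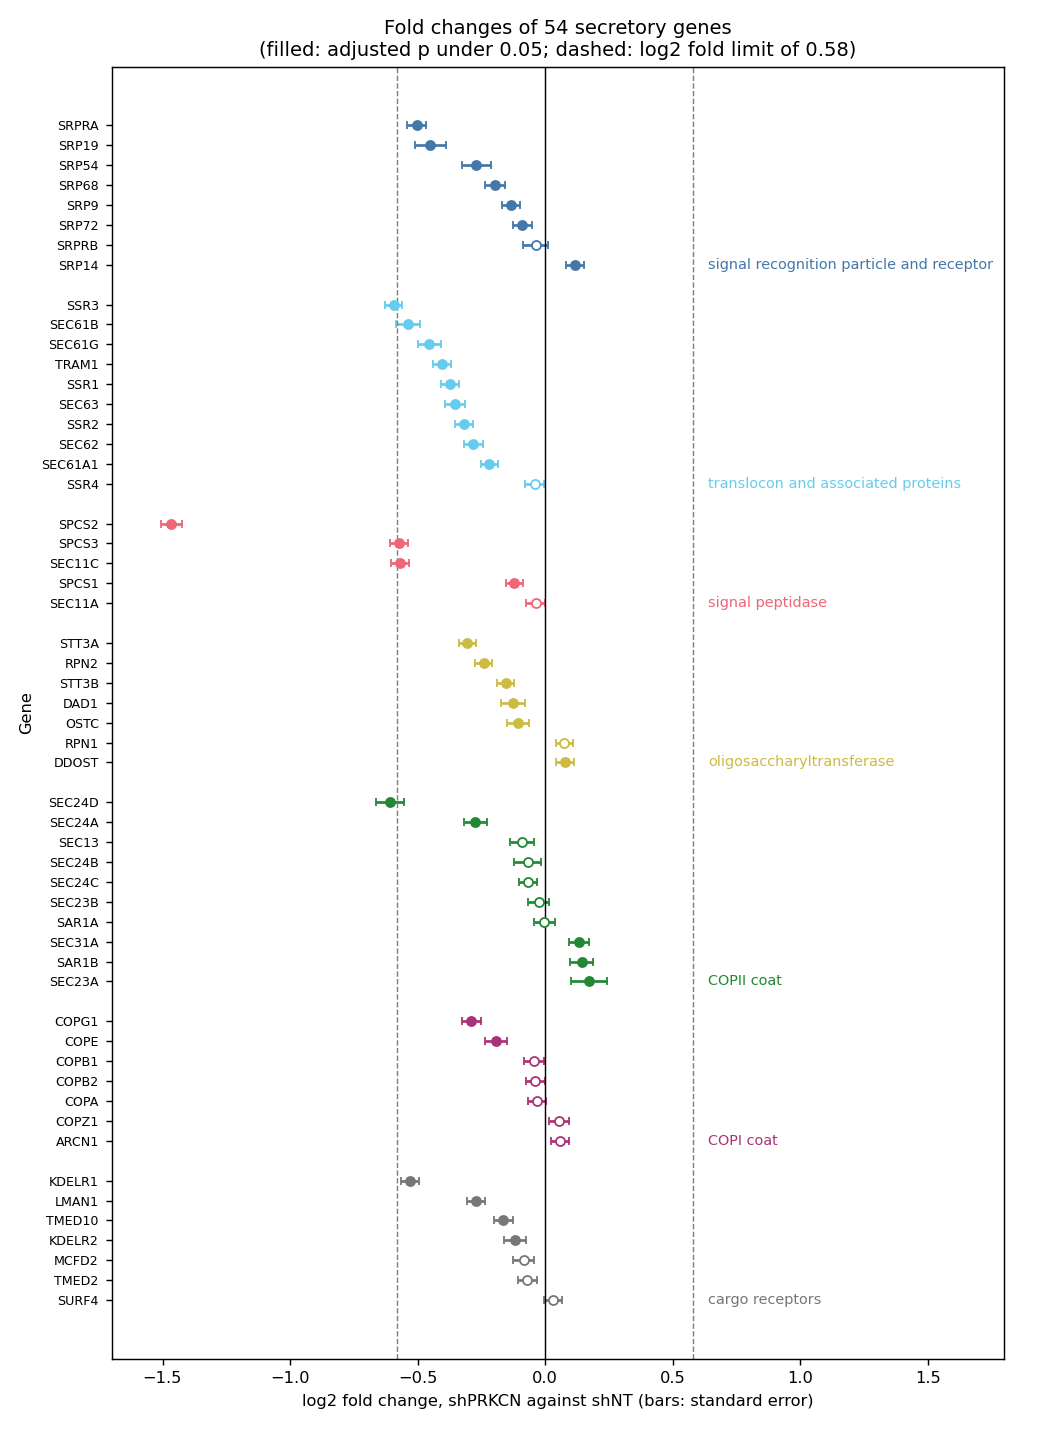
Log2 fold change of the 54 genes in shPRKCN against shNT with its standard error, grouped by complex; filled points passed at an adjusted p under 0.05 and dashed lines mark the log2 fold limit of 0.58. SPCS2 stands alone at -1.47, the translocon genes lie between -0.59 and -0.04, and the COPI genes between -0.29 and 0.06.

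Counts and medians differed between the 7 complexes. The share called lower was 90% in the translocon, 80% in signal peptidase and 75% in the SRP and its receptor. It was 71.4% in oligosaccharyltransferase, 57.1% in the cargo receptors, 28.6% in the COPI coat and 20% in the COPII coat. Among all genes tested it was 27.8%. The 4 that act on a protein as it enters the ER (SRP and receptor, translocon, signal peptidase, oligosaccharyltransferase) held 30 genes, of which 24 fell, 2 rose and 4 did not pass, with a median of -0.26 on the log2 scale. The coats and cargo receptors held 24 genes, of which 8 fell (33.3%), 3 rose (12.5%) and 13 did not pass. Their median was -0.07. Their lower share was near the 27.8% of all genes tested and the 32.2% of the abundant ones, while that of the entry genes was 80%. Summed levels stood at 83.4% of control for the entry genes and at 92.7% for the coats and cargo receptors. Without SPCS2 the entry genes stood at 85.1%, with 23 of 29 lower and a median of -0.24. The difference between these 2 sets was not tested.

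**Figure D2:**
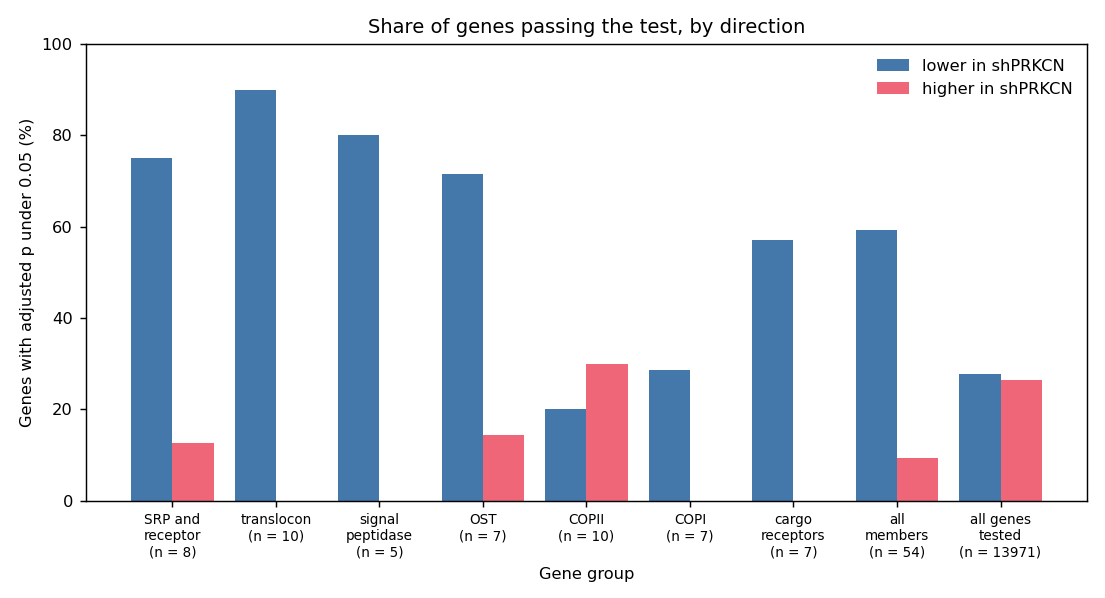
Percentage of genes that passed at an adjusted p under 0.05, lower (blue) or higher (red) in shPRKCN, for each complex, all 54 members and all 13971 genes tested. The lower share is 90% in the translocon and 20% in the COPII coat, against 27.8% of all genes.

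The SRP, a ribonucleoprotein, and its receptor accounted for 8 genes, of which 6 fell, 1 rose and 1 did not pass. Their median was -0.16 on the log2 scale. SRPRA (chr11:126235930-126268895), the alpha subunit of the receptor, was measured at 198, 189 and 185 CPM in shNT and at 132, 139 and 132 CPM in shPRKCN. The groups were far apart, and the fall was -0.50 ± 0.038 on the log2 scale (adjusted p = 6.8e-19). Its membrane-anchored partner SRPRB was measured at 81.0, 72.1 and 78.6 CPM in shNT and at 70.7, 81.0 and 74.0 CPM in shPRKCN. Here the libraries overlapped and the estimate of -0.04 ± 0.048 did not pass (adjusted p = 0.532). SRP19, which helps assemble the particle on its RNA, fell by 0.45, SRP54, the GTPase that binds the signal sequence, by 0.27, and SRP68 by 0.20. The smaller falls were those of SRP9 (-0.13) and of SRP72 (-0.09), the partner of SRP68, whose call was lost in 11 alternative fits. SRP14, which pairs with SRP9 in the domain that slows translation, rose by 0.12 ± 0.037 (adjusted p = 0.0052), so the partners of 1 heterodimer passed in opposite directions. The SRP14 call was lost without shNT 2 (adjusted p = 0.058). Of the 50-base stretches in the annotated transcripts of SRP19, 18.3% also occur in other genes, chiefly ZRSR2P1. For SRP9 the share is 11.9%, in SRP9P1. How the counting treated such reads is not known here.

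In the translocon group, which forms the channel through the ER membrane, 9 of 10 genes fell and 0 rose, with a median of -0.36 on the log2 scale. Summed, its genes were at 2561 ± 15.3 CPM (SD, n = 3) in shNT and 2024 ± 12.6 CPM in shPRKCN, 79.0% of control. SSR3 (chr3:156539553-156555117), the gamma subunit of the translocon-associated protein (TRAP) complex, was measured at 397, 397 and 391 CPM in shNT and at 257, 265 and 264 CPM in shPRKCN. It fell to 66.3% of control, by 0.59 ± 0.034 on the log2 scale (adjusted p = 9.3e-25). The other TRAP subunits were unequal: SSR1 fell by 0.37 and SSR2, the most abundant member per length, by 0.32, whereas SSR4 had the smallest estimate of the group. SSR4 was measured at 184, 186 and 196 CPM in shNT and at 183, 187 and 180.5 CPM in shPRKCN, with overlapping libraries and a log2 fold change of -0.04 ± 0.037 (adjusted p = 0.364). Of the channel itself, the small subunits SEC61B (-0.54) and SEC61G (-0.45) were lowered more than the pore-forming SEC61A1 (-0.22), a difference that was not tested. SEC62 and SEC63, which serve proteins that enter after synthesis, fell by 0.28 and 0.35. TRAM1, a membrane protein next to the channel, fell by 0.40.

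Signal peptidase, which removes the signal sequence, held both the strongest fall of the 54 and a gene that did not pass. Of its 5 genes, 4 fell, with a median of -0.57, and their summed level went from 1242 ± 9.59 CPM (SD, n = 3) to 883 ± 7.36 CPM, 71.1% of control. SPCS2 (chr11:74949266-74979033), an accessory subunit, was measured at 256, 239.5 and 239.6 CPM in shNT and at 87.6, 95.0 and 83.8 CPM in shPRKCN. This is 36.2% of control and a log2 fold change of -1.47 ± 0.041 (adjusted p = 6.0e-42), which ranged from -1.52 to -1.42 when any 1 library was left out. Ordered by fold, SPCS2 was 223rd of the 3877 genes that fell among all genes tested, and 26th of the 2201 abundant genes that fell. Of the 50-base stretches in its annotated transcripts, 15.8% also occur in the pseudogene SPCS2P4, and how the counting treated such reads is not given in the sources used here. Without SPCS2 the complex stood at 79.7% of control. Another accessory subunit, SPCS3 (chr4:176319966-176332245), was measured at 256, 264 and 267 CPM in shNT and at 180.5, 167 and 182 CPM in shPRKCN. It fell by 0.57 ± 0.037 (adjusted p = 3.5e-22), whereas SPCS1 fell by 0.12. Its 2 catalytic subunits are alternatives of each other. SEC11C (chr18:59139884-59158832) was measured at 268, 262 and 262 CPM in shNT and at 176, 181 and 178 CPM in shPRKCN, a fall of 0.57 ± 0.035 (adjusted p = 7.4e-23). SEC11A (chr15:84669544-84716139) was measured at 134, 129 and 129 CPM in shNT and at 124, 128 and 130.2 CPM in shPRKCN. Its libraries overlapped, and its estimate of -0.04 ± 0.039 did not pass (adjusted p = 0.433).

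**Figure D3:**
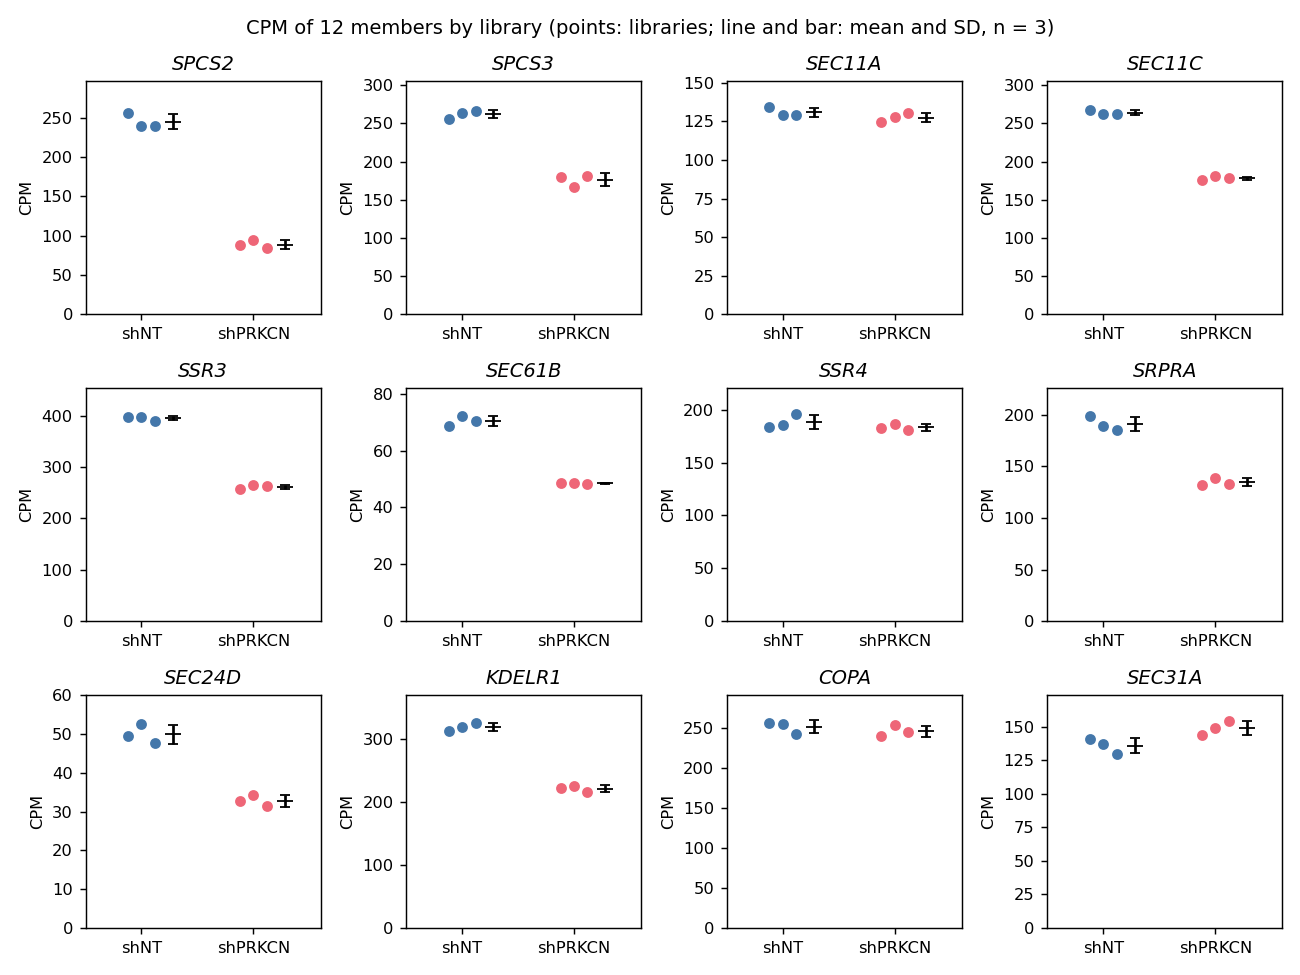
CPM of 12 members in each library (points), with the mean and SD of 3 libraries beside them, on axes that start at 0. In SPCS2, SPCS3, SEC11C, SSR3, SEC61B, SRPRA, SEC24D and KDELR1 every shPRKCN library lies below every shNT library, in SEC31A every one lies above, and in SEC11A, SSR4 and COPA the groups overlap.

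Oligosaccharyltransferase, which transfers N-linked glycans to the entering chain, counted 7 genes, of which 5 fell, 1 rose and 1 did not pass. The median was -0.13, and the summed level was 92.6% of control. STT3A (chr11:125591769-125623091), the catalytic subunit of the form that works at the translocon, was measured at 377, 372 and 361 CPM in shNT and at 299, 307 and 293 CPM in shPRKCN. It fell by 0.30 ± 0.034 (adjusted p = 5.7e-12). STT3B, the catalytic subunit of the form that glycosylates skipped sites, fell by 0.15. RPN2 fell by 0.24, and OSTC, a subunit of the STT3A form, by 0.11, a call lost in 6 alternative fits. DAD1 passed at -0.13 although its libraries overlapped, and its call was lost in 8, DESeq2 among them. RPN1 had the smallest estimate, at 380.1, 373 and 381 CPM in shNT and 387, 415 and 393 CPM in shPRKCN. All 3 shPRKCN values lay above control, but the estimate of 0.07 ± 0.034 did not pass (adjusted p = 0.056). It passed as higher in 8 alternative fits, DESeq2 among them. DDOST rose by 0.08 (adjusted p = 0.048), a call lost with the replicate block and in 4 of the fits without 1 library. In addition, 13.9% of its 50-base stretches are shared with the antisense gene PINK1-AS. Without strand information, reads from the 2 cannot be told apart.

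The COPII coat counted 10 genes. Of these, 2 fell (20%), 3 rose (30%) and 5 did not pass, beside 27.8% lower and 26.5% higher among all genes tested. The median was -0.05 and the summed level 97.2% of control. SEC24 proteins select the cargo, and SEC24D (chr4:118722823-118836126) was the member past the fold limit. It was measured at 49.5, 52.7 and 47.8 CPM in shNT and at 32.7, 34.4 and 31.3 CPM in shPRKCN, a fall of 0.61 ± 0.055 (adjusted p = 1.5e-15). SEC24A fell by 0.27, whereas SEC24B and SEC24C did not pass at -0.07 each. The GTPase that starts coat assembly is encoded by SAR1A and SAR1B. SAR1A had the smallest estimate of the 54, at 107, 101 and 112 CPM in shNT and 105, 105 and 109 CPM in shPRKCN, with overlapping libraries and a log2 fold change of -0.003 ± 0.041 (adjusted p = 0.95). SAR1B rose by 0.14 ± 0.044 (adjusted p = 0.0045). SEC31A, of the outer cage, rose by 0.13 ± 0.039 (adjusted p = 0.0031), and its cage partner SEC13 did not pass at -0.09. SEC23A, of the inner coat, rose by 0.17 ± 0.070 (adjusted p = 0.034), a call lost without shNT 2, shNT 3 or shPRKCN 1, and SEC23B did not pass at -0.03. Without shNT 2, the number of members that rose went from 5 to 2.

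The COPI coat is built of 7 subunits, called coatomer. Of these, 2 fell (28.6%), 0 rose and 5 did not pass. The lower share was near the 27.8% of all genes tested, of which 26.5% rose. The median was -0.04 and the summed level 96.3% of control. COPG1 (chr3:129249606-129277773), the gamma subunit, was measured at 149, 146 and 153 CPM in shNT and at 119.8, 125 and 121 CPM in shPRKCN. It fell by 0.29 ± 0.038 (adjusted p = 1.4e-09), and COPE, the epsilon subunit, fell by 0.19, a call lost in 1 alternative fit. COPA, the alpha subunit, had the smallest estimate, at 257, 256 and 243 CPM in shNT and 240.4, 253 and 245 CPM in shPRKCN. These libraries overlapped, and -0.03 ± 0.035 did not pass (adjusted p = 0.451). The remaining subunits COPB1 (-0.04), COPB2 (-0.04), COPZ1 (0.05) and ARCN1 (0.06), which encode beta, beta prime, zeta and delta, did not pass either.

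Among the 7 cargo receptors 4 fell, 0 rose and 3 did not pass, with a median of -0.12 and a summed level of 86.4% of control. KDELR1 (chr19:48382575-48397412), a receptor that returns escaped ER chaperones, was measured at 314, 321 and 326 CPM in shNT and at 222, 226 and 216 CPM in shPRKCN. It fell by 0.53 ± 0.035 (adjusted p = 8.1e-22), and its relative KDELR2 by 0.12, a call lost in 2 alternative fits. LMAN1, a lectin that carries glycoproteins out of the ER, fell by 0.27, while its cofactor MCFD2 did not pass at -0.08. Of the p24 family, TMED10 fell by 0.16 and TMED2 did not pass at -0.07. SURF4, an export receptor for soluble proteins, was measured at 226, 215 and 227 CPM in shNT and at 224, 236 and 223 CPM in shPRKCN. The libraries overlapped, with an estimate of 0.03 ± 0.036 (adjusted p = 0.477).

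**Figure D4:**
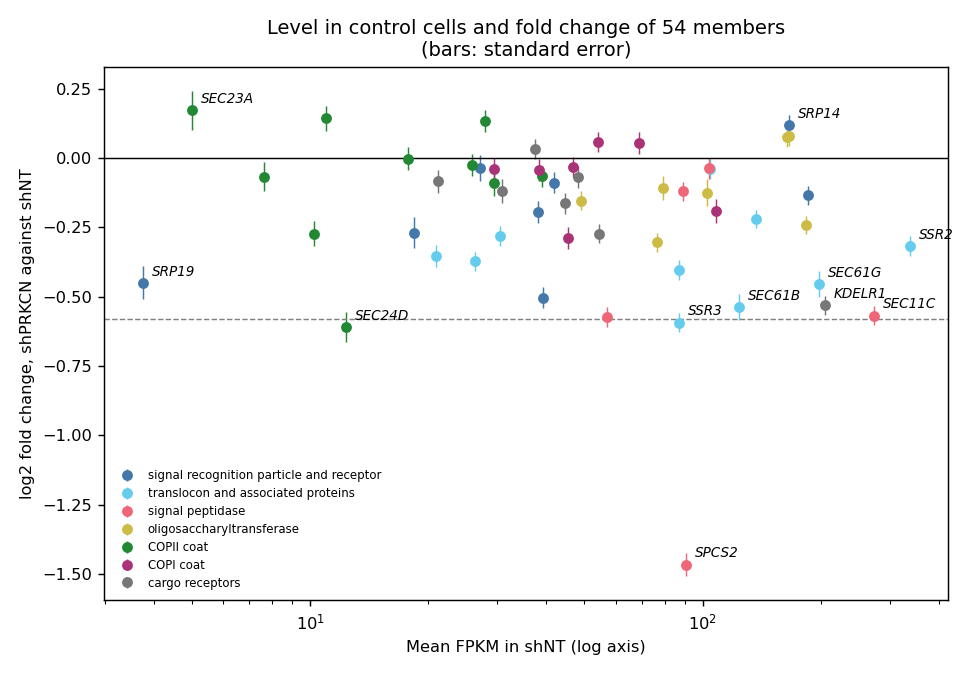
Mean FPKM in the 3 shNT libraries (log axis) and log2 fold change with its standard error for the 54 members, coloured by complex; the dashed line marks a log2 fold change of -0.58. Of the 3 genes past the line, SEC24D had 12.3 FPKM, SSR3 had 86.8 and SPCS2 had 90.4 in shNT.

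Several of these complexes use 1 of 2 or more paralogs, and 7 such pairs were compared within each library as the log2 ratio of the first to the second. In all 7 pairs the ratios of the 2 groups did not overlap, which for 3 against 3 libraries gives the smallest p the 2-sided exact permutation test allows, 0.1 (0.1 after adjustment over the 7 pairs). No pair therefore could pass at 0.05. Such separation was common, since the ratios of 73.2% of all pairs among the 6834 abundant genes did not overlap either. The widest shifts were in SEC24C/SEC24D (0.54) and SEC11A/SEC11C (0.53). Per transcript length, SEC11A stood at 0.381 ± 0.0042 of SEC11C (SD, n = 3) in shNT and at 0.550 ± 0.010 in shPRKCN, and SEC24C at 3.16 ± 0.18 times SEC24D in shNT and 4.59 ± 0.14 times in shPRKCN. Relative to its paralog, each of SEC11A and SEC24C was higher in every knockdown library than in any control library. KDELR1 stood at 6.66 ± 0.31 times KDELR2 in shNT and 5.00 ± 0.20 times in shPRKCN, a shift of -0.41. The other shifts were -0.21 for SEC24A/SEC24B, 0.20 for SEC23A/SEC23B, -0.15 for STT3A/STT3B and -0.15 for SAR1A/SAR1B. The transcripts of the 7 pairs share 0 stretches of 50 bases.

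**Figure D5:**
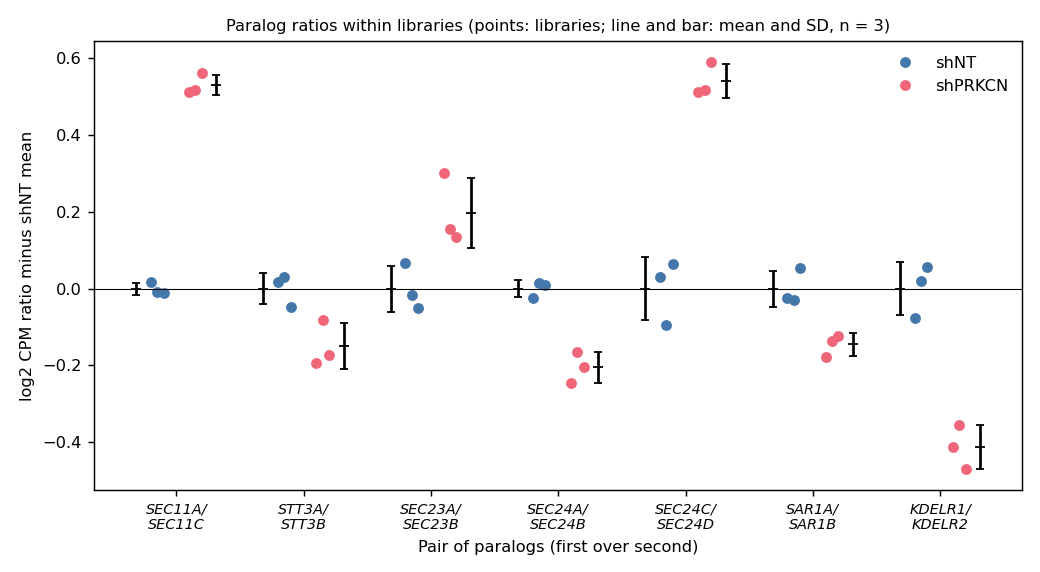
Log2 ratio of the CPM of 2 paralogs in each library, minus the shNT mean of that pair, with mean and SD (n = 3). In each of the 7 pairs the shPRKCN points lie apart from the shNT points, from 0.54 above for SEC24C/SEC24D to 0.41 below for KDELR1/KDELR2.

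Start windows were searched on both strands for 5 motifs known from the UPR and related responses. Of the 54 members 47 had a window. SRPRA, SPCS1, TRAM1, RPN1, STT3B, SEC24D and KDELR2 had none. The UPR element core TGACGTGG, a sequence bound by XBP1 and ATF6, occurred in 9 of the 47 (19.1%), beside 0.927% of all 27305 genes with a window and 1.15% of the 11035 that were also tested here. The 9 were COPA, COPB1 and COPB2 of the COPI coat, SEC23A and SEC24A of the COPII coat, SEC62, SSR3 and SSR4 of the translocon, and SRP19. Among these 9, 4 fell, 1 rose and 4 did not pass, with a median log2 fold change of -0.04. Of the 38 members without it 22 fell, 4 rose and 12 did not pass, with a median of -0.13. Over all 127 tested holders 54 fell, 29 rose and 44 did not pass, with a median of -0.10. Among all 13971 genes tested 27.8% fell and 26.5% rose, and among the 6834 abundant genes 32.2% and 34.7%. Whether holders differed from other genes was not tested. Letters of the match overlap the ER stress response element, since both contain CCACG. That element, written as CCAAT, 9 bases of any kind and CCACG, occurred in 0 of the 47 and in 0.0916% of all genes. The ER stress response element II (ATTGG, 1 base, CCACG) was found in 0 and in 0.0696%, and the cAMP response element TGACGTCA in 0 and in 2.25%. GAAA, 2 bases and GAAA, the core of the interferon-stimulated response element, occurred in SEC23B and SRP54 (4.26%) and in 4.38% of all genes. A match describes the letters of a window and not binding.

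Other genes of the same route, a list of 93 named after accessory subunits, tethers, further cargo receptors and regulators, were read beside the members. Of the 89 tested, 37 fell (41.6%), 20 rose (22.5%) and 32 did not pass, beside 27.8% lower and 26.5% higher among all genes tested. Their median was -0.03 and their summed level 93.8% of control. The SNAREs and tethers between ER and Golgi, which fuse the vesicles, held 9 lower and 2 higher of 13, with a median of -0.21. Accessory subunits of oligosaccharyltransferase held 3 lower and 0 higher of 5. Among them MAGT1, which serves the STT3B form, fell by 0.85 ± 0.042 (adjusted p = 8.1e-28). The insertion routes beside the translocon held 7 lower (26.9%) and 6 higher (23.1%) of 26, near the shares of all genes, with a median of 0.03. COPII assembly factors held 3 lower (27.3%) and 2 higher (18.2%) of 11, and the COPI and ARF cycle 3 and 3 of 11 (27.3% each). The lower shares of both were also near that of all genes. Within the COPI and ARF cycle, ARFGAP3, an ARF GTPase-activating protein, fell by 1.02 ± 0.064 (adjusted p = 1.2e-22). In the other cargo receptors 6 fell and 6 rose of 16 (37.5% each). TMED4 of the p24 family rose from 95.6, 102 and 96.9 CPM to 187, 194 and 188 CPM, by 0.95 ± 0.039 (adjusted p = 1.2e-32), while its relative TMED10 fell. KDELR3 fell by 1.87 ± 0.47 (adjusted p = 0.00054), from 25, 29 and 29 counts to 4, 5 and 14. Among the regulators 6 fell and 1 rose of 7. XBP1 (chr22:28794560-28800569), the factor known to expand the secretory apparatus of plasma cells, fell from 912, 894 and 932 CPM to 369.6, 385 and 369.7 CPM, by 1.28 ± 0.033 (adjusted p = 1.9e-43).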

How the data were processed

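Total RNA of 6 MM.1S libraries was sequenced, 3 infected with scramble shRNA (shNT) and 3 with PRKCN shRNA (shPRKCN). Groups were taken from the treatment label and the time of 3 days from the methods. The authors deposited raw counts per gene and FPKM values of the same genes. The submitters' processing notes name FastQC, HISAT2, StringTie and GRCh38.p14. Versions, the counting tool, the annotation and the strand setting are not given in the sources used here. According to the methods, cells were sorted for a fluorescent marker after transduction in general, without a statement on these libraries. The study's own comparison used DESeq2.

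Counts were scaled by TMM, filtered by filterByExpr and tested with the quasi-likelihood test of edgeR 4.0.16 (R 4.3.3) over 13971 genes, with Benjamini-Hochberg adjustment over all of them. The fold limit of 0.58 on the log2 scale was that of the study. CPM were computed from the counts with TMM-scaled totals. The standard error is the log2 fold change divided by the root of F. DESeq2 1.42.0 and limma 3.58.1 on log2 of the deposited FPKM plus 1 or 0.1 were alternatives. Depth allowed at least 721 counts for every member in every library. Every column belonged to a labelled library (0 columns of no sample). Between the libraries of 1 replicate number, deviations from the group means had correlations of -0.06, -0.03 and -0.03. These values cannot show whether libraries were handled in pairs, because other pairings were not compared.

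Gene coordinates and start windows came from RefSeq GRCh38.p14, and shared 50-base stretches from GENCODE transcripts. All 54 members are named. Library values are given for those past the fold limit and for the member with the highest and the lowest absolute fold change of each complex, and other secretory genes only past the fold limit. Values of SPCS3, SEC11C and single CPM shown in plots were added after they were seen. The members and lists were chosen with earlier results of these data known.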

Additional observations from a re-analysis of the deposited data

How the results depend on the processing

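Of 864 member estimates under other settings, 805 kept their direction and their side of the threshold. Calls were lost under at least 1 setting in 8 members (COPE, DAD1, DDOST, KDELR2, OSTC, SEC23A, SRP14 and SRP72) and gained in 2 (RPN1 and SEC24C). Direction turned in SAR1A, at 0.00061 with DESeq2, 0.0044 with upper-quartile scaling, 0.016 with library-size scaling, 0.0028 without the filter, 0.016 with limma on log2(FPKM + 1) with or without a filter and 0.017 with log2(FPKM + 0.1), and from -0.034 to 0.032 when 1 library was left out. SRPRB ranged from -0.092 to 0.0067 when 1 library was left out. The members' median was -0.11 with library-size scaling and with limma, and -0.14 to -0.13 when 1 library was left out. With 1 library left out, 29 to 32 members fell and 2 to 5 rose. Past the fold limit, 2 to 4 fell when 1 library was left out, 2 with library-size scaling or limma on log2(FPKM + 0.1), and 1 with limma on log2(FPKM + 1) or glmTreat. Over all genes, the fold limit left 635 lower and 310 higher with limma on log2(FPKM + 1), 648 and 315 without its filter, 881 and 505 with log2(FPKM + 0.1), and 821 and 339 with glmTreat. With the replicate number as a block, 31 members fell and 4 rose, and 3784 of all genes fell and 3585 rose. Every member had at least 721 counts in each library, and the number of libraries limits the paralog ratios. The cause of these shifts was not tested.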
